A study of Mus musculus with 16 samples.

Results

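The mitochondrial respiratory chain genes described here are the 84 genes of the array whose symbol begins with Nduf, Uqcr, Cox4 to Cox8 or Atp5, or is Sdha, Sdhb, Sdhc or Sdhd. They were taken by symbol alone from 12393 genes with a probe set of a single symbol, and 156 of the 22626 probe sets tested belonged to them. Each gene was represented by its probe set of highest mean log2 intensity over the 16 tumors. By the role of the protein, 33 genes encode subunits of complex I (6 core and 27 accessory), 4 of complex II, 8 of complex III, 16 of complex IV and 17 of complex V. The other members are 5 assembly factors of complex I (Ndufaf1, Ndufaf3, Ndufaf4, Ndufaf5 and Ndufaf7) and Cox7a2l, which helps to join complexes into supercomplexes.

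The respiratory chain sits in the inner membrane of the mitochondrion. Complex I takes electrons from NADH and complex II from succinate, complex III passes them to cytochrome c and complex IV gives them to oxygen, while complex V uses the resulting proton gradient to make ATP. Nearly all subunits are encoded in the nucleus, and their transcripts are abundant in most tissues and above all in heart muscle. Some subunits of complex IV come in a muscle form (Cox6a2, Cox7a1, Cox8b) and a widely expressed form (Cox6a1, Cox7a2, Cox8a), and Cox4i2 is the lung form of Cox4i1.

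The 16 tumors were 7 primary lung adenocarcinomas and 9 metastases of p53R172H∆g/+ K-rasLA1/+ mice. All of them carry both alleles, an activatable K-ras oncogene and a mutant p53, so no comparison here is between genotypes, and no normal tissue was profiled. Mouse 1 gave metastases from the liver, the subcutaneous body wall and the inguinal region (the last counted here with the body wall), mouse 2 from the liver, mouse 3 from the heart, a mediastinal lymph node and the subcutaneous body wall, and mouse 4 from a mediastinal lymph node and the parietal pleura. Each of these 4 mice also gave 1 primary tumor, and mice 5, 6 and 7 gave a primary tumor only. The mice received no treatment named in the labels, and ages of the single animals are not used here. Tumors were dissected free of adjacent tissue and each was measured on 1 Affymetrix array. The values are those of bulk tumor, in which fewer cells of a type and less RNA per cell cannot be told apart, and the number of arrays limits their precision.

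The heart metastasis carried RNA of heart muscle. Of 18 cardiac muscle genes, 12 had their highest value of the 16 tumors there, where this was so for 9.12% of all genes. Their median log2 difference from the other metastases was 2.27. Their summed intensity was 7279 against 1012 to 2116 in the other 15 tumors. Nppa, the atrial natriuretic peptide, was at 2161 there and at most 35.9 elsewhere, whereas Myh6, the main cardiac myosin, was at 6.55 there and between 2.32 and 14.1 elsewhere. The summed intensity of 13 skeletal muscle genes was 2615 in the inguinal tumor of mouse 1 and 1313 in the body wall tumor of mouse 3, against 496 to 716 in the other 14 tumors. Alveolar type 2 genes, which mark the lung epithelium these tumors resemble, summed over 9 genes to between 18078 and 47490 in the primary tumors and between 1281 and 28591 in the metastases.

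**Figure D1:**
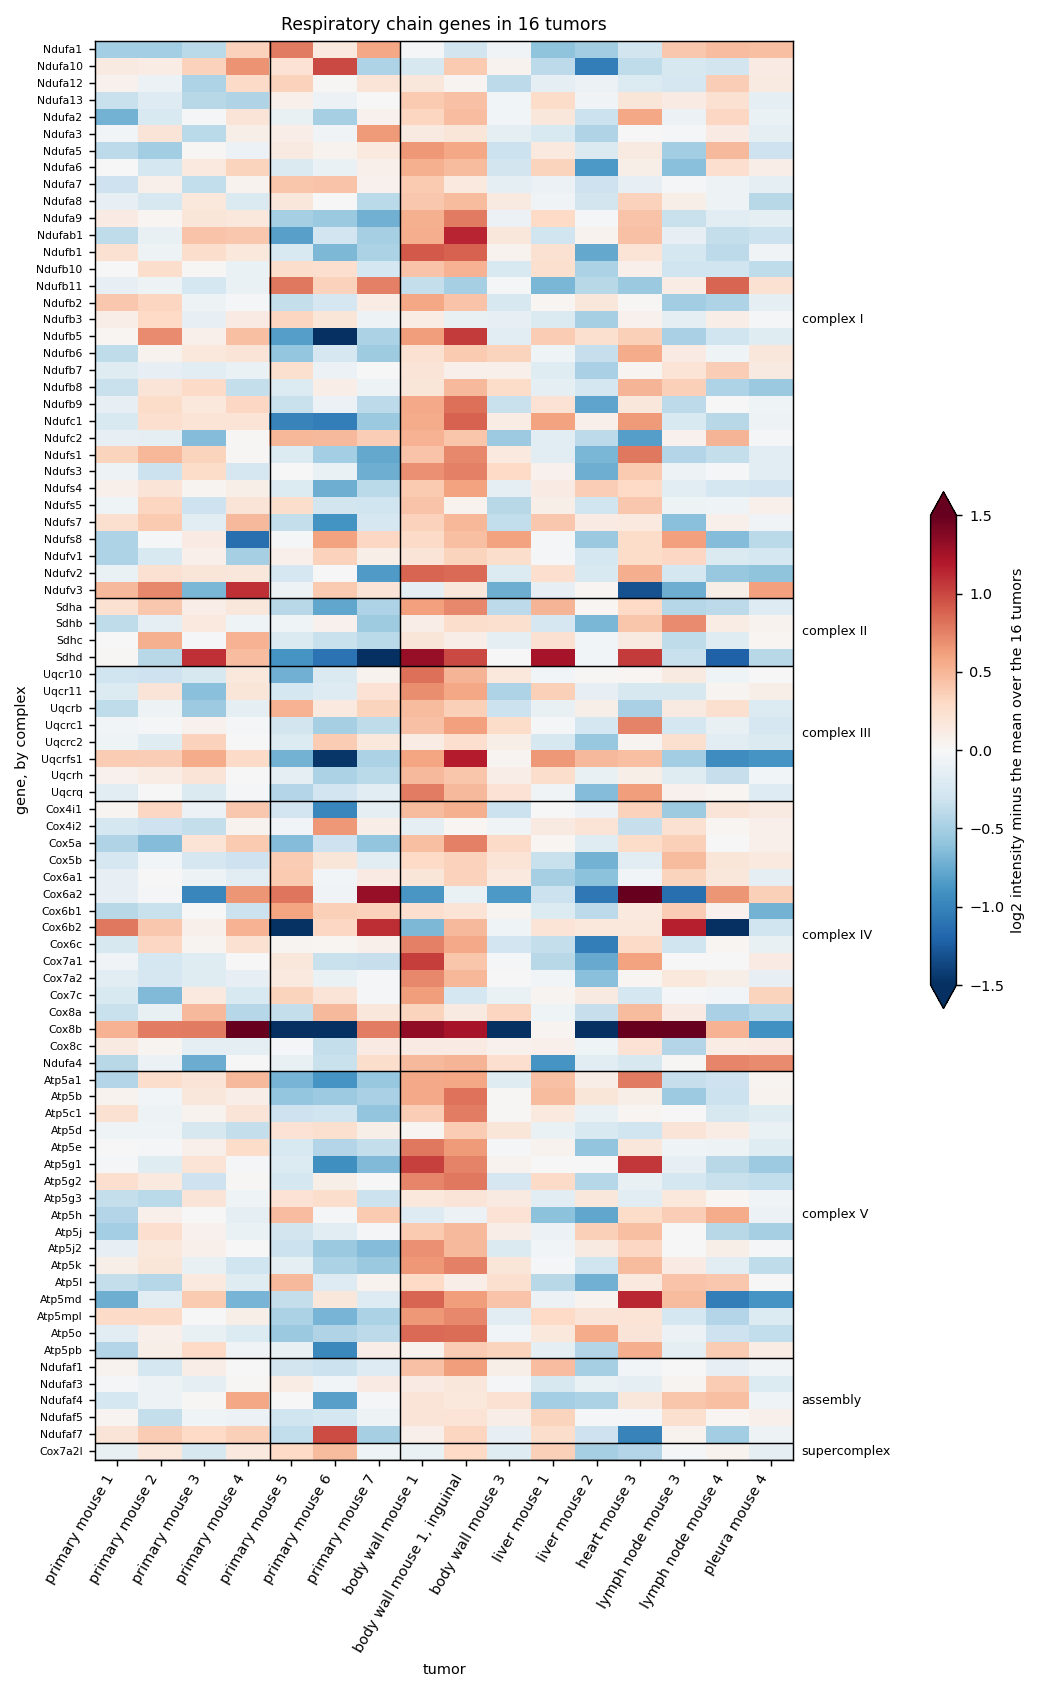
Log2 intensity of the 84 respiratory chain genes (rows, by complex) in the 16 tumors (columns), as the difference from the mean of each gene over the 16 tumors, with the color scale capped at 1.5 in either direction. The columns of the body wall and inguinal tumors of mouse 1 are mostly red in all 5 complexes, with member medians of 0.43 and 0.47.

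Promoters of 4 members are shown because the results below turn on these genes. Cox6a1 is a widely expressed form, and Cox7a1 is a muscle form of another subunit. Cox8b had the largest difference of all members in the heart metastasis, and Uqcrc1 had the largest of complex III there. The sequences cover 250 bases before to 50 bases after the transcription start, are from RefSeq on build GRCm38.p6, and are printed 5′ to 3′ on the strand of the gene in lower case, with matches to 5 motifs in capitals. The motifs, searched on both strands, were GCGCANGCG (a core of sites of nuclear respiratory factor 1, NRF1), CCGGAAG (ETS factors, among them nuclear respiratory factor 2) and AAGATGGC (YY1). The others were AAGGTCA (nuclear receptors such as Esrra) and CTANNNNTA (outer letters of sites of MEF2, a factor of muscle genes). N is any base, so a match to the MEF2 letters need not be a MEF2 site. Matches of the NRF1 core on both strands can overlap each other.
Cox6a1, chr5:115348909-115349208, minus strand: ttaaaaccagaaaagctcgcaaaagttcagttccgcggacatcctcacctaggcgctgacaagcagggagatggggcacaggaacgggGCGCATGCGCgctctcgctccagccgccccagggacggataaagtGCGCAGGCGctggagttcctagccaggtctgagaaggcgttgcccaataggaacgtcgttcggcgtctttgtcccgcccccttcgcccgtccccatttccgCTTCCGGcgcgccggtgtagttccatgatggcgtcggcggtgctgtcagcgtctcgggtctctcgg
Cox7a1, chr7:30183921-30184220, plus strand: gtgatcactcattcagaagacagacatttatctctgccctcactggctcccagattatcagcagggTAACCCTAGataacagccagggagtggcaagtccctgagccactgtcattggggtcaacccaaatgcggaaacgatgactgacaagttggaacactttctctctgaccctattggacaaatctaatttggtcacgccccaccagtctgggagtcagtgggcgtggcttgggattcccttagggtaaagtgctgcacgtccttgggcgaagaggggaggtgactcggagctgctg
Cox8b, chr7:140900397-140900696, minus strand: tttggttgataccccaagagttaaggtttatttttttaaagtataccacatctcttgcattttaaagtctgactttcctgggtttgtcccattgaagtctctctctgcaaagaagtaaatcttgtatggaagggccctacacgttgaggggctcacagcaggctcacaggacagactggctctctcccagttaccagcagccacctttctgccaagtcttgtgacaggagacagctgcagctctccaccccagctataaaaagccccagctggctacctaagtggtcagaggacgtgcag
Uqcrc1, chr9:108936398-108936697, plus strand: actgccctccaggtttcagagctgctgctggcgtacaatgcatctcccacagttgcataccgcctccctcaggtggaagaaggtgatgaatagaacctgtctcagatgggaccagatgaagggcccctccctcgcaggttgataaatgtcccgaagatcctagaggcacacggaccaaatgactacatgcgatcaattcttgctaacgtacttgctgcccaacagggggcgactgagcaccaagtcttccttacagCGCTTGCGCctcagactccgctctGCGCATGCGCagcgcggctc
The capitals in Cox6a1 mark 3 matches to the NRF1 core and 1 to the ETS core. Those in Cox7a1 mark 1 match to the MEF2 letters, those in Uqcrc1 mark 3 to the NRF1 core, and the window of Cox8b holds none of the 5 motifs. Among promoters not shown, that of Cox7a2, the widely expressed partner of Cox7a1, also held only 1 match, to the MEF2 letters. That of Cox8a held 2 to the ETS core, and those of Atp5g1 and Ndufa4 held none.

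Promoters were found for 70 of the 84 members. The NRF1 core was in 19 of them (27.1%), against 12.5% of 9882 array genes with a promoter. The ETS core was in 18 (25.7% against 16.4%), the YY1 core in 9 (12.9% against 4.39%), the nuclear receptor core in 7 (against 4.35%) and the MEF2 letters in 13 (18.6% against 18.5%). By complex, the NRF1 core was in 7 of 15 promoters of complex V, 5 of 30 of complex I, 2 of 3 of complex II, 2 of 5 of complex III and 1 of 11 of complex IV. A match is a description of the letters and not of binding.

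The first comparison was of the 9 metastases with the primary tumor of the same mouse. No member passed an adjusted p of 0.05 in limma, where 80 of all 22626 probe sets did (0.354%). The fit counts metastases of 1 mouse as separate replicates. With 1 mean ratio per mouse in limma, 0 of the 22626 probe sets passed. The median log2 difference over the 84 members was 0.05, against −0.01 over all genes. Above 0 lay 51 members, where 47.9% of all genes did. By complex the medians were 0.01 for complex I, −0.16 for complex II, 0.12 for complex III, 0.10 for complex IV and 0.12 for complex V. At an unadjusted p of 0.05, 3 members were higher in metastases and 2 lower, where 4.28% and 7.1% of all probe sets were. The median depended on mouse 1, and was −0.07 without that mouse and −0.03 without its body wall and inguinal tumors. Other lists moved in the same comparison, with all 7 proliferation genes above 0 (median 1.32) and all 8 endothelial genes below 0 (median −0.26), and their part in the member values was not tested.

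**Figure D2:**
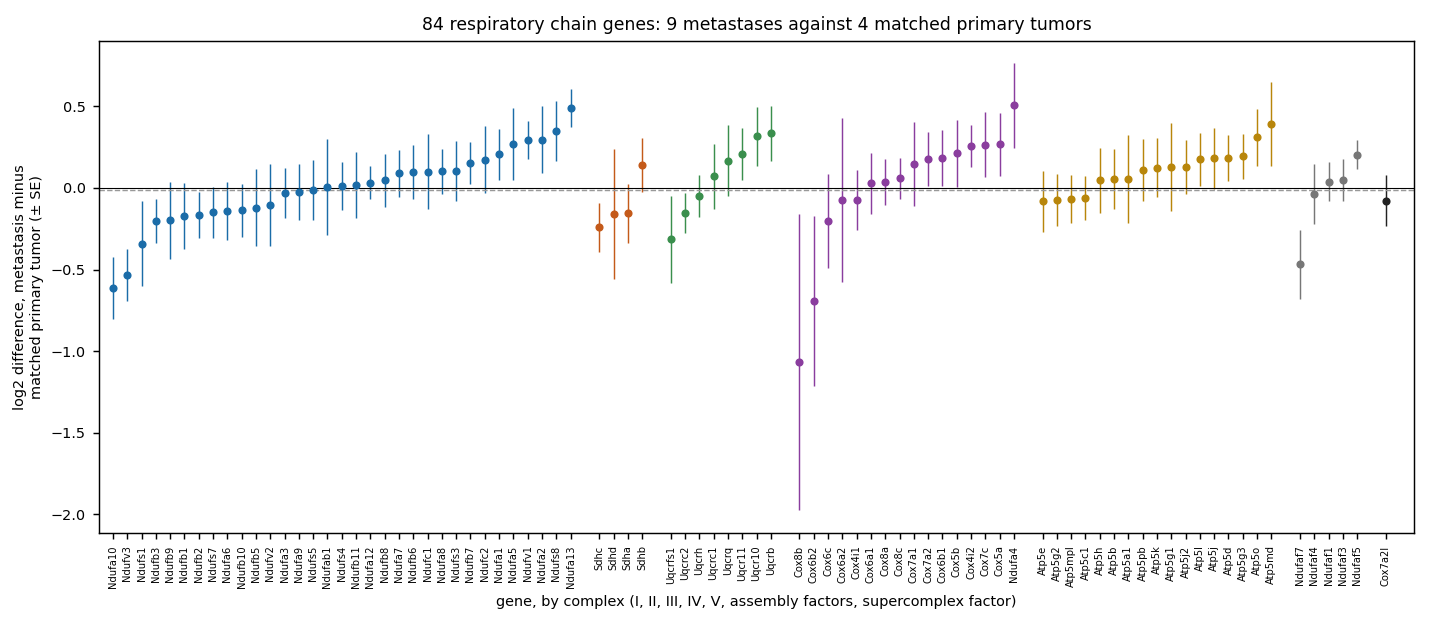
Log2 difference of the 9 metastases from the 4 matched primary tumors for each of the 84 genes (points, with the standard error of the limma fit), ordered within complexes I to V, assembly factors and the supercomplex factor. The dashed line is the median of all genes, and the points run from −1.07 (Cox8b) to 0.51 (Ndufa4), on both sides of 0 in every complex.

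Complex I held the members with the smallest p, on both sides of 0. Ndufa13, an accessory subunit also known as Grim19, was at 829.1, 916, 789 and 764 in mice 1, 2, 3 and 4 (primary tumors). In the 9 metastases it was at 955 at the lowest, 1193 at the median and 1417 at the highest. All 9 metastases were above all 4 matched primary tumors, and the log2 difference was 0.49 ± 0.12 (SE of the fit, adjusted p = 0.129). The primary tumors of mice 5, 6 and 7, at 1107, 988 and 1043, lay within the range of the metastases.

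Ndufv3, an accessory subunit of the NADH-oxidizing module, ran the other way. Its levels were 1608, 1889, 714 and 2447 for the primary tumors of mice 1 to 4, and 462, 1051 and 1750 (lowest, median and highest) for the metastases. The groups overlapped, but each metastasis was below its own primary tumor, with log2 ratios from −1.01 (lymph node, mouse 4) to −0.05 (body wall, mouse 3). The difference was −0.53 ± 0.16 (adjusted p = 0.222). Ndufa10, another accessory subunit, was lower than the primary tumor in 8 of 9 metastases, all but the inguinal tumor of mouse 1, with a difference of −0.61 ± 0.19 (adjusted p = 0.237).

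The methods' paired t-test over the 9 ratios also takes metastases of 1 mouse as independent. It called Ndufa13 and the assembly factor Ndufaf5 higher and Ndufv3 lower at an adjusted p of 0.05. These were 3 members of 84, where 884 of 22626 probe sets (3.91%) were called, 1.14% higher and 2.76% lower. Ndufaf5 was higher in 9 of 9 metastases, by 0.21 ± 0.09 in limma (adjusted p = 0.424). Of 84 members, 2 were higher in 9 of 9 metastases (2.04% of all genes) and 1 was lower in 9 of 9 (3.66% of all genes).

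Ndufa4, long counted with complex I and now placed in complex IV, had the largest positive difference, 0.51 ± 0.26 (adjusted p = 0.514). Its levels in the primary tumors of mice 1 to 4 were 562, 705, 447 and 755. It was higher in 7 of 9 metastases, with log2 ratios of 0.51 to 1.00, and lower in both liver metastases (−0.47 in mouse 1 and −0.06 in mouse 2).

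Ndufs8, an iron-sulfur core subunit of complex I, differed by 0.35 ± 0.18 and Uqcrb, a small subunit of complex III, by 0.34 ± 0.17, each higher in 8 of 9 metastases. The probe sets of a gene varied. The second brightest of Ndufs8 gave 0.36 (8 of 9 higher), the third −0.09 (5 of 9) and the fourth 0.04 (8 of 9), and the second of Uqcrb gave −0.08 (5 of 9). Atp5md, a small membrane subunit of complex V, differed by 0.39 ± 0.26 (adjusted p = 0.629), and its levels ranged from 124 in the lymph node metastasis of mouse 4 to 557 in the heart metastasis.

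On the lower side, Ndufs1, the largest core subunit of complex I, differed by −0.34 ± 0.26 and Uqcrfs1, the Rieske iron-sulfur protein of complex III, by −0.31 ± 0.27. Ndufaf7, which helps to assemble complex I, differed by −0.47 ± 0.21. Cox8b (−1.07 ± 0.91) and Cox6b2 (−0.69 ± 0.52) differed by more, but they were the 2 members with a mean below the 25th percentile of all probe sets. Cox6b2, the testis form of Cox6b1, was at most 30.1 in any tumor.

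The genes of complex II differed by −0.16 ± 0.18 (Sdha, and 0.10 by its second probe set), 0.14 ± 0.16 (Sdhb), −0.24 ± 0.15 (Sdhc) and −0.16 ± 0.40 (Sdhd). Ndufv1, which binds NADH in complex I, differed by 0.29 ± 0.12 (adjusted p = 0.370, and −0.01 by its second probe set) and Uqcrc1, a core protein of complex III, by 0.07 ± 0.20. In complex IV, Cox4i1 differed by −0.07 ± 0.19, Cox4i2 by 0.26 ± 0.13, Cox5a by 0.27 ± 0.19, Cox6b1 by 0.18 ± 0.17 (−0.26 by its second probe set) and Cox8c by 0.06 ± 0.13. Atp5a1 and Atp5b, which form the catalytic head of complex V, both differed by 0.05, with an SE of 0.27 and 0.18. The 3 genes of its membrane ring, which encode the same mature protein, differed by 0.13 ± 0.27 (Atp5g1), −0.07 ± 0.16 (Atp5g2) and 0.19 ± 0.14 (Atp5g3). Cox7a2l differed by −0.08 ± 0.16.

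Taken 1 metastasis at a time, the metastases differed among themselves. The body wall and inguinal tumors of mouse 1 were each above the primary tumor of that mouse in 77 of 84 members, where 45.5% and 55.9% of all genes were. Their median log2 ratios over the members were 0.52 and 0.56, against −0.03 and 0.07 over all genes, and the medians of the 5 complexes lay between 0.44 and 0.70. The liver metastasis of the same mouse was above it in 54 members (47.8% of all genes) with a median of 0.13. In the liver metastasis of mouse 2 only 19 members were higher (48.2% of all genes), and the median was −0.28.

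In mouse 3, the heart metastasis was above the primary tumor in 65 members (44.4% of all genes, median 0.19), the lymph node metastasis in 38 (42.8%, median −0.05) and the body wall metastasis in 42 (49.6%, median −0.00). In mouse 4, 34 members were higher in the lymph node metastasis (48.3% of all genes, median −0.12) and 22 in the pleural metastasis (43.9%, median −0.20). Complex II had the lowest median of the 5 complexes in both, −0.64 and −0.43. The SD of the member median over the 9 metastases was 0.30. All ratios of a mouse share its 1 primary tumor. As a deviation from the gene means, the member median of the primary tumor of mouse 1 was −0.11, within the range of −0.17 to 0.04 over the 7 primary tumors.

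**Figure D3:**
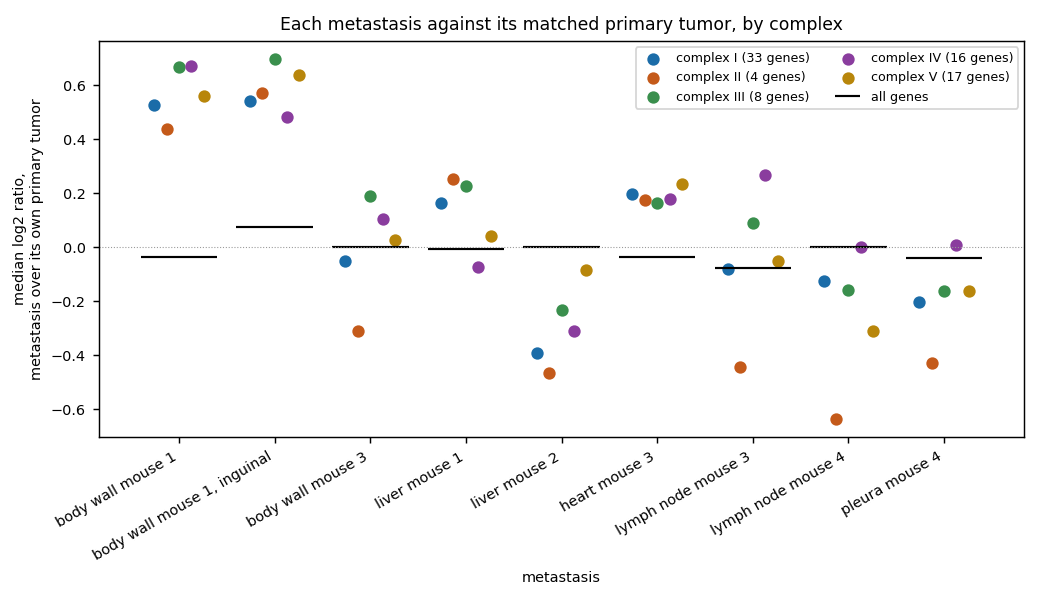
Median log2 ratio of each of the 9 metastases to its own primary tumor over the genes of each complex (colored points) and over all genes (black lines). In both tumors of the body wall of mouse 1 the 5 complexes lie at 0.44 or above, and in the liver metastasis of mouse 2 they lie below 0.

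The levels showed the same tumors at the extremes. The body wall tumor of mouse 1 had the highest value of the 16 tumors for 19 members (22.6%, against 2.87% of all genes) and the inguinal tumor for 23 (27.4%, against 13.2%). The inguinal array had the highest median intensity of the 16, 85.5. For 29 members (34.5%) both were above the other 14 tumors, where this was so for 3.94% of all genes. These were 13 members of complex I, 1 of complex II (Sdha), 3 of complex III, 4 of complex IV and 8 of complex V. Atp5b was at 2024 and 2400 in these tumors, and between 909 and 1896 in the other 14. Cox7a2 was at 2086 and 1794, against 825 to 1419 elsewhere, and Ndufv2, a core subunit of complex I, at 1061 and 1047, against 322 to 848. This pair of tumors was singled out after its values were seen, so the counts are a description.

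The 3 body wall metastases, the inguinal tumor among them, were then set against the mean of the liver metastases and of the lymph node and pleura metastases. No member passed an adjusted p of 0.05, where 3 probe sets (0.0133%) did. The median difference was 0.36 against 0.06 over all genes, and 77 of 84 members were above 0, where 59.0% of all genes were. With quantile normalization the median was 0.20 against −0.02 over all genes, and 67 members were above 0. An unadjusted p of 0.05 was passed by 24 members on the higher side, where 4.92% of all probe sets passed. The medians were 0.37 (complex I), 0.26 (II), 0.42 (III), 0.35 (IV) and 0.38 (V). The count was 13 without the subcutaneous tumor of mouse 1 and also 13 without its inguinal tumor. The share of all probe sets in these refits was not computed. Their medians were 0.30 and 0.27, against 0.11 and 0.03 over all genes. Without both tumors, which leaves the body wall tumor of mouse 3 alone, the median was 0.048, against 0.07 over all genes. Since 2 of the 3 body wall tumors came from mouse 1, site and mouse cannot be told apart here.

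The largest of these differences were in Ndufab1, the mitochondrial acyl carrier protein (0.85 ± 0.29), Atp5md (0.77 ± 0.30), Ndufs1 (0.75 ± 0.26), Ndufb1 (0.75 ± 0.26) and Cox6c (0.75 ± 0.22), with adjusted p between 0.608 and 0.626. Uqcrc1 had the smallest adjusted p of the members, 0.546, with a difference of 0.60 ± 0.15. The second probe set of Ndufab1 gave 0.09. RNA of other cells differed between the tumors of mouse 1. The skeletal muscle sum was 576 in the subcutaneous tumor, within the 537 to 674 of the primary tumors, and 2615 in the inguinal tumor. The adipocyte sum over 8 genes was 2445 and 1145 (subcutaneous and inguinal), above the 350 to 545 of the primary tumors, and 748 to 1656 in the lymph node and pleura metastases, while Ucp1, the marker of brown fat, was at 5.82 and 1.00. The median log2 ratio of 7 proliferation genes was 2.27 and 2.81, against 0.46 to 1.79 in the other 7 metastases. The part of these RNAs in the respiratory chain values was not tested.

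Liver metastases lay on the other side. No member passed an adjusted p of 0.05 against the other sites with the heart apart, where 20 probe sets (0.0884%) did. The median was −0.23 (all genes −0.03), and 20 of 84 members were above 0, where 45.7% of all genes were. At an unadjusted p of 0.05, 15 members were lower, where 5.38% of all probe sets were. Complex IV had the lowest median, −0.34, and 6 of the 15 members, among them Ndufa4 (−1.05 ± 0.23, adjusted p = 0.194), Cox5b (−0.82 ± 0.19, adjusted p = 0.205) and Cox6a1 (−0.75 ± 0.17, adjusted p = 0.191). Complex II had a median of 0.16. Cox6a1 was at 922 and 845 in the liver metastases of mice 1 and 2, below all other 14 tumors, which lay between 1164 and 1703.

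Without the liver metastasis of mouse 2 the median was −0.15, against −0.01 over all genes, and 29 members were above 0. Without both body wall tumors of mouse 1, which are part of the other sites, it was −0.02, against −0.04 over all genes. Then 40 members were above 0. The liver metastasis of mouse 2 had the lowest value of the 16 tumors for 23 members (27.4%, against 9.09% of all genes), and 1024 of all 12393 genes were over 2-fold below its primary tumor. Hepatocyte genes summed over 11 genes to 10564 and 5566 in the liver metastases of mice 1 and 2, and to 6381 and 8066 in the subcutaneous and inguinal tumors of mouse 1. In the liver comparison 9 of 11 hepatocyte genes lay above 0 (median 2.24), whereas 0 of 8 macrophage genes (median −0.47), 1 of 8 endothelial genes (median −0.62) and 1 of 13 skeletal muscle genes (median −0.60) did. The part of these RNAs in the respiratory chain values was not tested.

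The lymph node and pleura metastases had a median of −0.12 against the other sites (all genes −0.02). Above 0 lay 30 of 84 members, where 48.0% of all genes did. No member passed an adjusted p of 0.05, where 6 probe sets (0.0265%) did. At an unadjusted p of 0.05, 5 members were higher (Atp5h, Cox5b, Cox6a1, Ndufb7 and Ndufb11) and 5 lower (Atp5b, Atp5j, Atp5o, Sdhd and Uqcrfs1), where 4.76% and 6.21% of all probe sets were. Sdhd, a membrane anchor of complex II, differed by −1.29 ± 0.59 by its brightest probe set and by −0.13 by the other, and Uqcrfs1 by −1.22 ± 0.43. Among the higher members, the second probe sets of Atp5h (−0.23), Cox6a1 (−0.15) and Ndufb7 (−0.20) lay below 0. The count of lower members was 18 without the body wall tumor of mouse 3 and 1 without the lymph node metastasis of mouse 4. The share of all probe sets in these refits was not computed. Their medians were −0.26 and −0.11, against −0.001 and −0.03 over all genes. All 8 endothelial genes (median 0.67), all 8 macrophage genes (median 0.63) and 8 of 10 lymphocyte genes (median 0.36) lay above 0 in this comparison, and 0 of 7 proliferation genes did (median −0.71). The ratio of the 3′ to the 5′ control probe set of Gapdh, a measure of RNA integrity, was 1.17 to 1.41 in these tumors and 1.01 to 1.29 in the liver and body wall metastases. The part of these in the respiratory chain values was not tested.

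The heart metastasis was compared with the other 8 metastases, and limma took its spread from the other groups. No member passed an adjusted p of 0.05, where 50 probe sets (0.221%) did. The median difference was 0.23, against −0.02 over all genes, and 60 of 84 members were above 0, where 47.5% of all genes were. The medians were 0.27 (complex I), 0.36 (II), 0.03 (III), 0.11 (IV) and 0.25 (V). At an unadjusted p of 0.05, 6 members were higher (3.8% of all probe sets) and 1 was lower (573 of all 12393 genes). The heart metastasis had the highest value of the 16 tumors for 12 members (14.3%), where this was so for 9.12% of all genes. With quantile normalization it had the highest value for 8 of 84 members and for 1017 of 12393 genes. Over every probe set of the members it had the highest value for 15 of 156. The median was 0.12 without the body wall tumor of mouse 3.

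The largest differences were those of Cox8b and Cox6a2, muscle forms of complex IV. Cox6a2, the form of subunit 6a in heart and skeletal muscle, was at 123 in the heart metastasis, at 16.9, 25.1 and 59.1 (lowest, median and highest) in the other 8, and at up to 92.2 in the primary tumors. The heart metastasis was above all 15 other tumors, and the difference was 2.56 ± 0.60 log2 units (adjusted p = 0.147). Cox8b was at 32.5 in the heart metastasis and at most 20.7 elsewhere. It was at the floor of 1 in 4 tumors, so its difference of 2.90 ± 1.62 (adjusted p = 0.655) depends on the floor, and it was the only member called with the floor at the 25th percentile, where 121 probe sets (0.535%) were. Cox7a1 was at 74.7 in the heart metastasis but at 101 in the subcutaneous tumor of mouse 1, and differed by 0.68 ± 0.28 (adjusted p = 0.488).

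The widely expressed forms differed by less, with −0.05 ± 0.21 for Cox6a1, 0.02 ± 0.24 for Cox7a2 and 0.33 ± 0.30 for Cox8a. Cox4i1 differed by 0.55 ± 0.37 and its lung form Cox4i2 by −0.42 ± 0.27. The inguinal tumor of mouse 1 and the body wall tumor of mouse 3 carried skeletal muscle RNA. Cox6a2 was at 34.6 and 20.5 in them, within the range of the primary tumors. Cox7a1 was at 65.6 and 48.8, against 38.9 to 55.6 in the primary tumors. Cox8b was at 14.9 and 1.00, against 1.00 to 18.3.

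**Figure D4:**
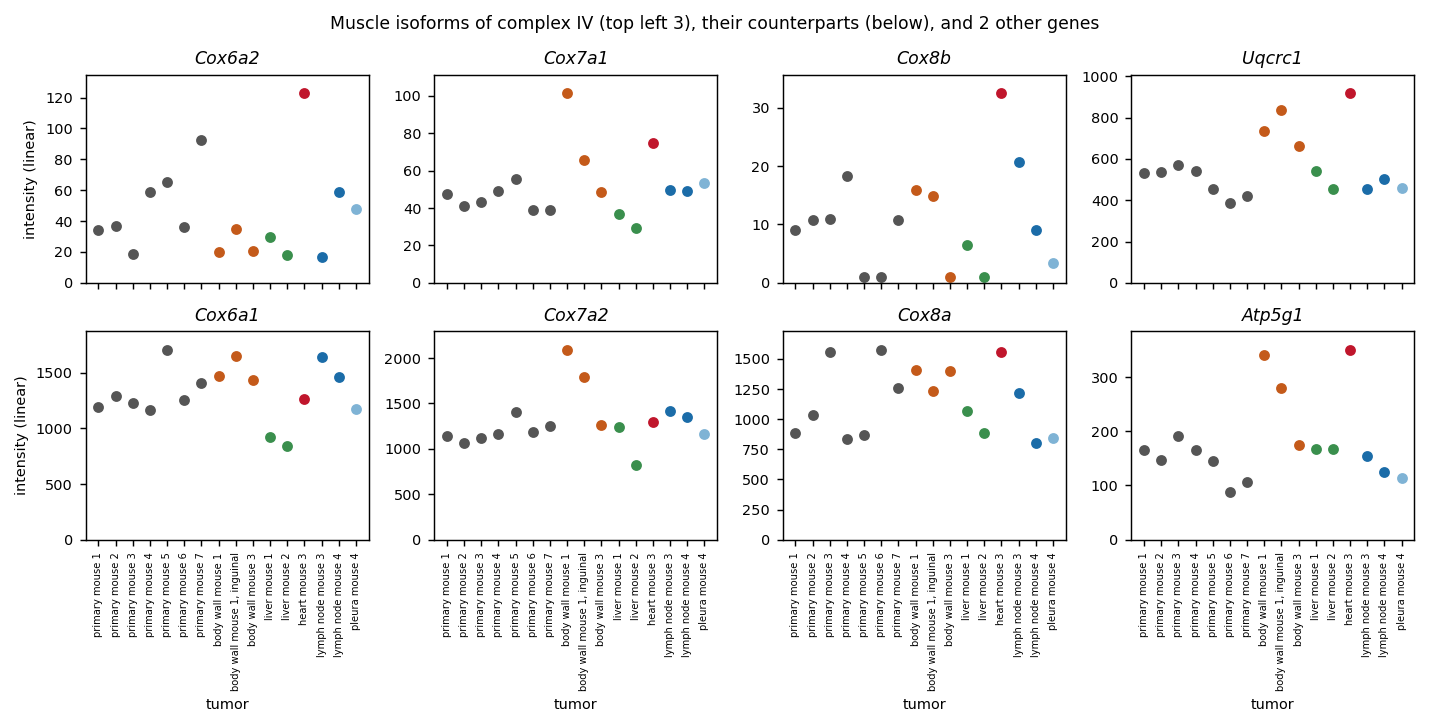
Intensity (linear axes from 0) of the muscle forms Cox6a2, Cox7a1 and Cox8b (top) above their widely expressed counterparts Cox6a1, Cox7a2 and Cox8a, and of Uqcrc1 and Atp5g1 (right), in each of the 16 tumors. Gray is primary, orange body wall, green liver, red heart, blue lymph node and light blue pleura, and the heart metastasis is the highest point for Cox6a2 (123), Cox8b (32.5), Uqcrc1 and Atp5g1.

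After Cox8b and Cox6a2 came widely expressed members of complexes I, II, III and V, several of them above the muscle form Cox7a1 (0.68). Atp5g1 was at 350 in the heart metastasis, at 341 and 280 in the body wall tumors of mouse 1 and at most 192 in the other 13 tumors, and differed by 1.01 ± 0.36 (adjusted p = 0.418). Its sister genes Atp5g2 and Atp5g3 differed by 0.08 ± 0.29 and −0.32 ± 0.25. Uqcrc1 was at 917 in the heart metastasis and at 453, 522 and 837 (lowest, median and highest) in the other 8, a difference of 0.73 ± 0.21 (adjusted p = 0.265). Ndufs1 differed by 0.94 ± 0.37, Sdhd by 0.81 ± 0.76, Atp5md by 0.80 ± 0.42, Atp5a1 by 0.78 ± 0.43 and Ndufv2 by 0.63 ± 0.39. Other probe sets turned the direction for Sdhd (−0.37) and Ndufv2 (−0.08 and −0.21), and those of Atp5a1 gave 0.47 and −0.77. At the other end, Ndufaf7 (−0.96 ± 0.39), Ndufv3 (−0.77 ± 0.43) and Ndufc2 (−0.63 ± 0.37) had their lowest value of the 16 tumors in the heart metastasis, and the second probe set of Ndufc2 gave −0.08. The cardiac muscle sum given above was also highest in the heart metastasis, and the part of heart muscle RNA in these values was not tested. Against the other metastases of mouse 3 alone, which gives no test, the member median was 0.23 and that of complex IV −0.05.

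Genes of neighboring pathways in the heart metastasis were as follows. Of 16 citric acid cycle genes, 5 were highest of the 16 tumors there (Idh3a, Idh3g, Sucla2, Pdha1 and Pdhb), where 9.12% of all genes were. Their median difference over the 16 genes was 0.35. Of 15 genes of fatty acid oxidation 1 was called, Fabp3, the fatty acid binding protein of heart muscle (1.78 log2 units, adjusted p = 0.00333). Ckmt2, the creatine kinase of muscle mitochondria, differed by 4.26 (adjusted p = 0.163). Of 74 mitochondrial ribosomal protein genes, 39 lay above 0, with a median of 0.02, where 47.5% of all genes lay above 0.

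In the body wall comparison other mitochondrial gene lists also had medians above 0. Of all genes 59.0% lay above 0, with a median of 0.06. The median was 0.34 over the 74 mitochondrial ribosomal proteins (64 above 0), 0.27 over 18 import genes (17 above 0), 0.28 over 19 electron carriers and other inner membrane proteins (16 above 0), 0.23 over 16 citric acid cycle genes (15 above 0), 0.32 over 15 fatty acid oxidation genes (11 above 0), 0.15 over 16 regulators of mitochondrial genes (11 above 0) and 0.14 over 17 assembly genes with other names (11 above 0). Glycolysis genes, 13 in all, had a median of 0.14 (7 above 0). None of these genes passed an adjusted p of 0.05, and at an unadjusted p of 0.05 there were 16 ribosomal genes, 3 import genes, 3 electron carrier or inner membrane genes, 2 citric acid cycle genes, 2 assembly genes and 1 regulator on the higher side, and 0 genes of fatty acid oxidation or glycolysis. Between metastases and matched primary tumors the medians of these 8 lists lay between −0.12 and 0.07.

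The primary tumors of mice 5, 6 and 7 were set against those of mice 1 to 4 after their values had been seen. Mouse 6 was female and all other mice were male, so 1 of the 3 tumors on this side differed in sex from those on the other. No member passed an adjusted p of 0.05, where 231 probe sets (1.02%) did. At an unadjusted p of 0.05, 9 members were higher and 26 lower, where 7.27% and 13.4% of all probe sets were. The median over the members was −0.09, against −0.05 over all genes, and with quantile normalization it was 0.002. By complex the medians were −0.06 (complex I), −0.68 (II), −0.16 (III), 0.19 (IV) and −0.35 (V). Of 84 members, 9 (10.7%) were above in all 3 tumors (7.1% of all genes) and 22 (26.2%) below in all 3 (12.2% of all genes), 8 of them of complex V and 3 of complex II. Sdhd was at 83.2, 71.7 and 46.1 for mice 5, 6 and 7 and at 155, 115, 328 and 213 for mice 1 to 4, a difference of −1.53 ± 0.39 (adjusted p = 0.101). Without mouse 6, 24 members were lower at an unadjusted p of 0.05 and no probe set passed an adjusted p of 0.05. The share of all probe sets lower at the unadjusted p was not computed for that refit. Its median was −0.08, against −0.03 over all genes. With dim probe sets left out, 11 of 76 members were called, where 1172 of 13575 probe sets (8.63%) were. Of these members 2 were higher (Cox6b1 and Ndufb11, where 1.97% of all probe sets were) and 9 lower (where 6.66% were), and Ndufa9, Atp5b and Atp5mpl among the lower ones were also called with the floor at the 10th percentile (6 members, where 2.77% of all probe sets were) and at the 25th (3 members, where 1.64% were).

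The direction in this comparison depended on the probe set. For 42 members with at least 2 probe sets above the 25th percentile of probe set means, the 2 brightest probe sets of a gene had opposite signs for 23 genes and were over 1 log2 unit apart for 9. Uqcrb was at 0.62 by one probe set and −1.46 by the other, Cox6b1 at 0.70 and −0.70, Sdha at −0.77 and 0.27, and Sdhd at −1.53 and −0.10. Signs were opposite for 16 of the 42 genes between metastases and matched primary tumors, 17 for the heart, 15 for the liver, 19 for the lymph node and pleura, and 3 for the body wall. The Gapdh ratio was 1.15 to 1.34 in mice 5 to 7 and 1.00 to 1.13 in the primary tumors of mice 1 to 4, and that of actin 1.87 to 1.98 against 1.27 to 2.12. In the subcutaneous and inguinal tumors of mouse 1 the Gapdh ratio was 1.03 and 1.09, in the body wall tumor of mouse 3 it was 1.29, and in the liver metastases of mice 1 and 2 it was 1.26 and 1.01. The part of RNA quality in these differences was not tested.

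**Figure D5:**
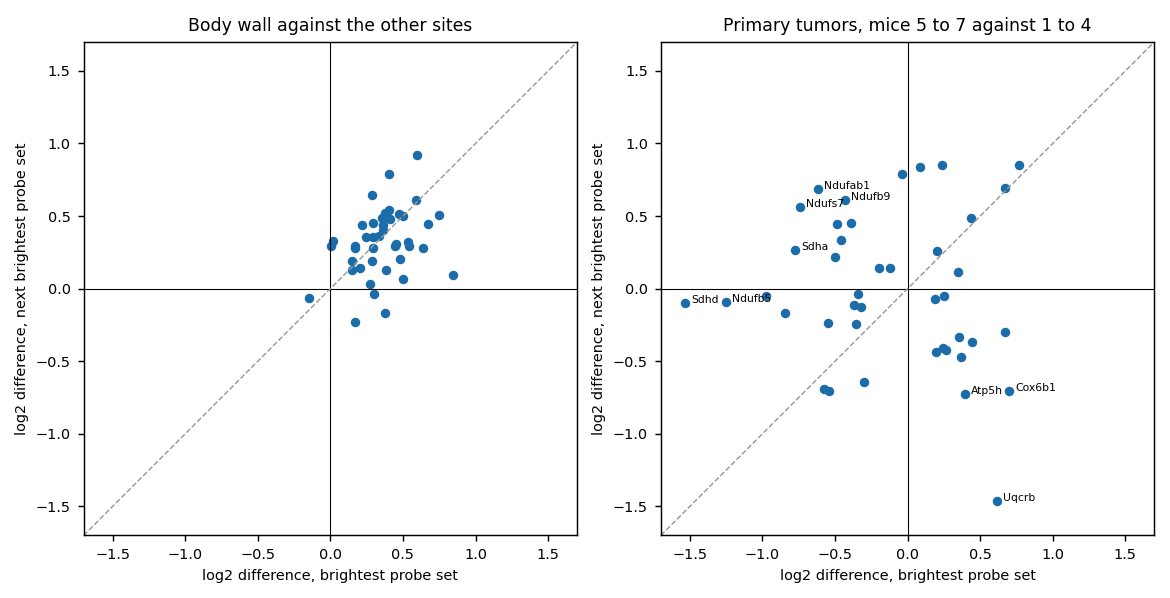
Log2 difference of the next brightest probe set against that of the brightest probe set of the same gene, for 42 members (points), with the body wall against the other sites on the left and the primary tumors of mice 5 to 7 against mice 1 to 4 on the right. Signs are opposite for 3 of 42 genes on the left and for 23 on the right, where the 9 genes over 1 log2 unit apart are labeled.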

How the data were processed

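One Affymetrix Mouse 430A 2.0 array was run per tumor. The authors made the deposited intensity values in dChip, with invariant set normalization of the arrays and a model of the perfect match minus mismatch difference, and the values are on a linear scale. The table holds 22690 probe sets, of which 64 controls were left out of tests (those of Gapdh and actin served for the 3′ to 5′ ratios). Symbols came from the platform annotation. The 8 probe sets that name a member among several symbols were left out.

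Intensities under 1 were raised to 1 (3.71% of values were at or under 1), and log2 was taken. Metastases and matched primary tumors were compared in limma 3.58.1 (R 4.3.3) over 13 tumors with the mouse as a fixed block, the pairing being that of the labels, which name the mouse of each tumor. Sites were compared over 16 tumors with the mouse as a random block (consensus correlation 0.298). Adjusted p is by Benjamini and Hochberg over 22626 probe sets, and ± gives the standard error of the fit. Metastases of 1 mouse are not independent, which the paired fit does not model beyond the mouse block. The scripts were tested on simulated data.

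Members and lists were chosen with earlier results of these data known. Genes described by name were the 5 highest and 5 lowest members between metastasis and primary tumor (above the 25th percentile of probe set means), the 10 highest in the heart, the tissue forms and core subunits, and others after their values were seen. Alternatives were floors at the 10th and 25th percentiles (5.54 and 24.3), quantile normalization, median centring, other sets of probe sets or members, dim probe sets left out (below the 40th percentile), other blocks, a variance trend with a robust prior, the methods' paired t-test, and tumors or mice left out.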

Additional observations from a re-analysis of the deposited data

Results flagged for a closer look

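Cox6b2 had a log2 intensity of 0.89 in the lymph node metastasis of mouse 4 and of 2.27 in the primary tumor of mouse 5, each far below the other tumors of its kind, in a probe set whose mean is below the 25th percentile. Cox8c, the testis form of subunit 8, had 8.39 in the lymph node metastasis of mouse 3, below the other 8 metastases. Of 74 groups of values examined, 3 held such a tumor, and how many chance alone would give was not tested.

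The median log2 ratio to the primary tumor was above 0 in all metastases of mouse 1 and below 0 in both of mouse 4, with a difference between the means of 0.56 over the members, 0.58 for complex I, 0.95 for complex II, 0.69 for complex III and 0.65 for complex V. For complex III the metastases of mouse 3 were also above 0, and differed from those of mouse 4 by 0.31. For complex IV the body wall metastases were above 0 and the liver metastases below (difference 0.61), as were the lymph node and liver metastases (0.32). For complex V the body wall metastases were above 0 and the lymph node metastases below (0.59). These differences were not tested.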

How the results depend on the processing

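Of 390 values recomputed under alternatives, 382 stayed within the spread of the metastases or within 1.5 times the count, and 8 did not. That spread was an SD of 0.30 over the members, larger than every main member median but that of the body wall (0.36). A median could thus fall to near 0 and still count as within it, as for the liver (−0.23 to −0.02). Members taken by the current symbol were the same 84 genes, so those values could not differ. The methods' paired t-test called 3 members between metastases and primary tumors (3.91% of all probe sets), and a floor at the 25th percentile called 1 member in the heart metastasis (0.535%). Without both body wall tumors of mouse 1, an alternative chosen after seeing the data, the body wall median was 0.048. Between the primary tumors, 6 members were called with the floor at the 10th percentile (2.77% of all probe sets) and 3 at the 25th percentile (1.64%). Over every probe set 1 was called (1.02%), and with dim probe sets left out 11 were (8.63%). Leaving out 1 primary tumor gave between 0 and 1. That member was Cox8b, called without mouse 7, where 0.186% of all probe sets were. It was at the floor of 1 in the primary tumors of mice 5 and 6. With no replicate block, so without the pairing by mouse, 0 members were called between metastases and primary tumors and the median was 0.08, and with 1 mean ratio per mouse it was 0.02. Over all alternatives the median lay between −0.07 and 0.12 for that comparison, 0.11 and 0.29 for the heart, 0.048 and 0.51 for the body wall, −0.38 and −0.02 for the liver, and −0.26 and −0.02 for the lymph node and pleura. Between the primary tumors it ran from −0.16 to 0.002. The medians of complexes I, II, III and V between metastases and primary tumors took both signs. With quantile normalization 11 members, and with the mouse as a fixed block 13, were higher in the body wall at an unadjusted p of 0.05, against 24. The share of all probe sets under these 2 alternatives was not computed. Their medians were 0.20 and 0.31, against −0.02 and 0.06 over all genes.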
